A study of Mus musculus with 6 samples.

Results

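The 35 genes described here encode the enzymes and carriers that take glucose to pyruvate and pyruvate into the mitochondrion. They were listed by name from the 34745 genes of the deposited islet table, with earlier results of these data known. All 35 were found. A set of 23 covers glucose uptake, the glycolytic steps, lactate formation and lactate export and is called the glycolytic members. The other 12 cover the mitochondrial pyruvate carrier, the pyruvate dehydrogenase complex with its kinases and phosphatase, and pyruvate carboxylase, and are called the pyruvate entry members. RNA of pancreatic islets isolated from C57BL/6 mice aged 8 weeks was sequenced in 6 libraries, 2 in each of 3 groups. WT islets came from wild-type mice. KO islets came from mice called βRapKO, in which beta cells lack Rptor, the gene of Raptor, a subunit that defines the growth-controlling kinase complex mTORC1. KO+DNMT3A islets were βRapKO islets given Dnmt3a, a DNA methyltransferase gene, by lentivirus, so this group carries the deletion as well. The names of the deposited WT and KO columns contain GFP, which the labels leave unexplained, and neither the promoter driving the Cre recombinase nor the number of mice behind a library is given in the sources used here.

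Glycolysis splits glucose into pyruvate in the cytosol. Beta cells are known for sending most of that pyruvate into mitochondria, through pyruvate dehydrogenase for oxidation and through pyruvate carboxylase for refilling the citric acid cycle, and the resulting ATP closes potassium channels and releases insulin. Beta cells are also known for keeping lactate dehydrogenase A and monocarboxylate carriers low, and for taking up glucose through GLUT2 (Slc2a2) in the mouse. In many cell types mTORC1 is known to raise glycolytic genes through the hypoxia-inducible factor HIF-1, which binds short promoter elements with the core ACGTG or GCGTG.

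The islet libraries were shallow and unlike one another. Inferred depths ran from 244783 fragments in WT replicate 1 to 1919788 in KO+DNMT3A replicate 1. Insulin transcripts (Ins1 and Ins2) held 0.17% and 0.11% of summed FPKM in WT replicate 1 and KO replicate 2 and 16.5% to 30.5% in the other 4, so each comparison below holds at least 1 insulin-poor library. Beta cell markers summed to 1566 and 1655 FPKM in the insulin-poor libraries and to 124543 FPKM or more elsewhere, with all 8 markers above 0 somewhere. Ins1, Ins2 and Iapp made up most of each sum, so it largely repeats the insulin values. All 8 were lower in the insulin-poor libraries, but by unlike amounts. G6pc2 measured 5.76 and 6.78 FPKM there and 100 to 271 FPKM elsewhere, and Nkx6-1 43.0 and 49.4 against 66.2 to 160 FPKM. Mitochondrially encoded genes took 44.8% and 50.9% of summed FPKM in the insulin-poor libraries and 16.5% to 26.5% in the others. Duct cell markers summed highest in WT replicate 1, at 1214 FPKM, and in KO+DNMT3A replicate 1, at 974 FPKM, against 246 to 397 FPKM elsewhere, with Cftr at 0 in all 6. Stellate cell and fibroblast markers summed to 1054 FPKM in WT replicate 1 and 144 to 339 FPKM elsewhere. Macrophage markers summed to 541 and 509.8 FPKM (WT), 517 and 327 (KO) and 238 and 159.99 (KO+DNMT3A). Acinar cell markers summed to at most 10.5 FPKM and all 5 red blood cell markers were at 0. Rptor, the deleted gene, measured 0.800 and 1.06 FPKM across WT, 0.378 and 1.51 across KO, and 0.714 and 1.93 across KO+DNMT3A. KO replicate 1 was the lowest library, and KO replicate 2, which is insulin-poor, lay above both WT libraries, so this level does not bear out the labels. The deletion concerns beta cells and these are whole islets at low Rptor values, so the level does not contradict the labels either. WT, KO and KO+DNMT3A mean the libraries so labelled throughout. Dnmt3a measured 2.94 and 4.43 FPKM (WT), 3.19 and 2.5 (KO) and 3.62 and 3.8 (KO+DNMT3A). Both KO+DNMT3A values lay above both KO values but within the WT range, so this level does not bear out the added gene. Whether RNA of the added copy is counted at this gene is not given in the sources used here. The part of all these library differences in the results below was not tested, and in bulk islets fewer cells of a type and less RNA per cell cannot be told apart.

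Promoter sequences were read for the motifs that the background above names, since many of these genes are known as HIF-1 targets. Of the 35 members, 34 had an entry in the RefSeq promoter table (GRCm38.p6), and Pdp1 had none. In the 250 bases before a start, on either strand, ACGTG was present in 12 of 23 glycolytic members (52.2%) and 3 of 11 pyruvate entry members (27.3%), against 18.5% of 27025 genes with an entry. GCGTG was present in 13 of 23 (56.5%) and 7 of 11 (63.6%), against 30.9%. Either core was present in 20 of 23 (87.0%) and 9 of 11 (81.8%), against 41.5%. The full E-box CACGTG, which contains ACGTG on both strands, was present in 3 of 23 (13.04%) and 2 of 11 (18.2%), against 6.86%. Median GC content of the windows was 58.4% and 62.4% in the members and 52% over all genes, and genes with several starts had more windows to hold a match. These matches describe letters, not bound sites. The windows of Slc16a3, Gapdh and Eno1 are shown as those of 3 of the 6 glycolytic members with both KO libraries below both WT libraries, and that of Pcx because it was the wider-ranging of the 2 pyruvate entry genes with an E-box. Capitals mark every ACGTG or GCGTG on either strand, and the sequences run 5′ to 3′ on the gene's own strand. Of the other 3 such glycolytic members, Slc2a1 and Pfkfb3 also held a core, and Tpi1 held neither. Among all 23 glycolytic members only Tpi1, Gpi1 and Eno2 held neither, so nearly all held a core whether or not they lay lower in KO.
Slc16a3, chr11:120948817-120949066, plus strand, inside the annotated gene with 14 bases in an exon of another transcript: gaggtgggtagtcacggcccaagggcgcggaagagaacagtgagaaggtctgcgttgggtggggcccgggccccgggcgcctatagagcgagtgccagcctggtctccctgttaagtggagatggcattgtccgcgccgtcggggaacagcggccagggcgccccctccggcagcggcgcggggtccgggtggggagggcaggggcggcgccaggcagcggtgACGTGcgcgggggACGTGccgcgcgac
Gapdh, chr6:125165774-125166023, minus strand, inside the annotated gene and outside its exons: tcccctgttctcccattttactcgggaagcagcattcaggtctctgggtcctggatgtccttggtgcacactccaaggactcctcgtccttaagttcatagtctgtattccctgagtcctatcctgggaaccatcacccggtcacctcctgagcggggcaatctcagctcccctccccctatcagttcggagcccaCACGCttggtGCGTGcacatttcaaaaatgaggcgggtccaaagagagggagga
Eno1, chr4:150236458-150236707, plus strand, outside any annotated gene and the first of 3 listed starts: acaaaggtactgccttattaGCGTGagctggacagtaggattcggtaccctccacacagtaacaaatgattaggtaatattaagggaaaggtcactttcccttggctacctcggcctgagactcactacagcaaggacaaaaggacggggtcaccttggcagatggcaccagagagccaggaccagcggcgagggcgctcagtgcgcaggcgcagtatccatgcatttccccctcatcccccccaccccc
Pcx, chr19:4510222-4510471, plus strand, outside any annotated gene and the first of 2 listed starts: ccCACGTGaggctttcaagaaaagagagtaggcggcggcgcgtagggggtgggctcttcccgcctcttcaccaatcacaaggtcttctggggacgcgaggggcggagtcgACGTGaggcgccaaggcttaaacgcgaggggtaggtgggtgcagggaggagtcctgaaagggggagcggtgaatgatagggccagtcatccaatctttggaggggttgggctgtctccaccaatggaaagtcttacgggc
The Slc16a3 window held 2 matches close to the start, the Gapdh window 2, the Eno1 window 1 and the Pcx window 3.

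The first comparison, KO with WT, asks how deletion of Raptor from beta cells relates to islet RNA of the glucose pathway. Most glycolytic members lay lower in KO, while pyruvate entry members lay both ways. On group means of log2(FPKM + 1), 16 of the 22 glycolytic members kept by the filter were lower in KO and 7 of the 12 pyruvate entry members, against 47.3% of the 13233 genes tested. The median log2 fold change was -0.46 for glycolytic members, -0.20 for pyruvate entry members and 0.03 over all genes. Both KO libraries lay below both WT libraries for 6 of 22 glycolytic members, the glucose carrier Slc2a1, the lactate exporter Slc16a3, and Tpi1, Gapdh, Eno1 and Pfkfb3, and for 2 of 12 pyruvate entry members, Mpc2 and Pdk4. Over all genes 10.5% behaved so. No member lay entirely above WT, against 9.36% of all genes. No member passed the limma test (0 of 34 and 0% of all genes, adjusted p = 1), and none had an unadjusted p under 0.05, against 240 of 13233 genes (1.81%). With 2 libraries against 2, an exact two-sided permutation test of a single gene cannot go below p = 0.333. The filter kept genes of at least 1 FPKM in at least 2 libraries and left out only Pfkfb4 of the 35, so counts cover 34.

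The glycolytic median rested on WT replicate 2: it was -0.04 without that library, -0.68 without WT replicate 1, -0.66 without KO replicate 1 and -0.37 without KO replicate 2. The pyruvate entry median rested on KO replicate 2: it was 0.51 without that library, -0.57 without KO replicate 1, -0.31 without WT replicate 1 and -0.17 without WT replicate 2. Without both insulin-poor libraries, which leaves KO replicate 1 against WT replicate 2, the glycolytic median was -0.70 and the pyruvate entry median 0.56.

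**Figure D1:**
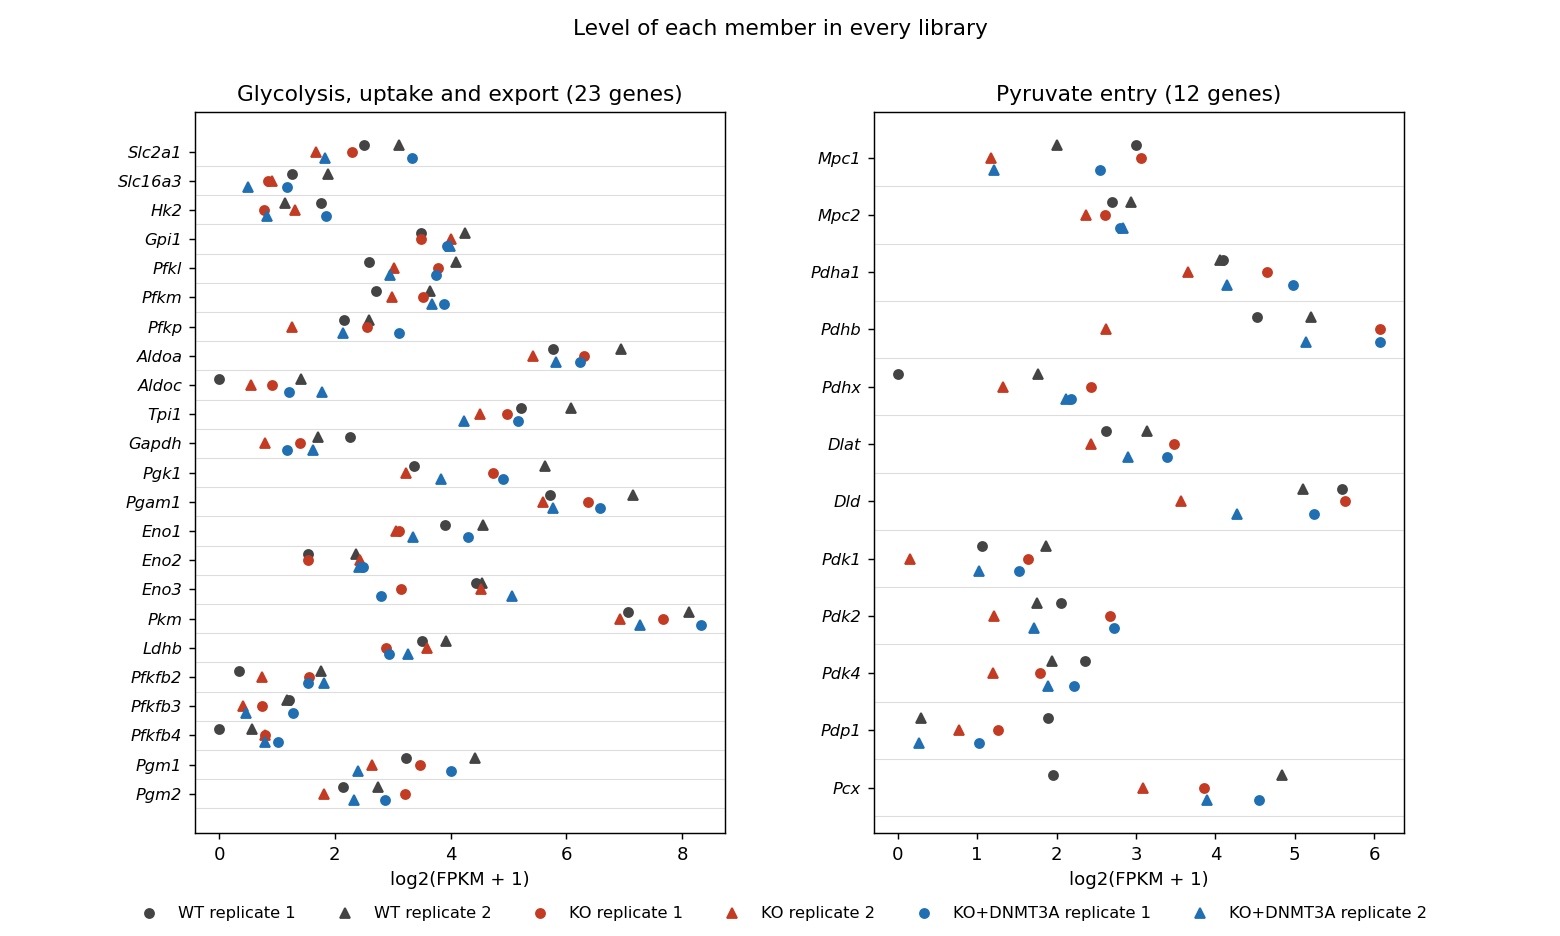
Level of each member in every library, as log2(FPKM + 1) on the horizontal axis, with 1 row per gene, black for WT, red for KO and blue for KO+DNMT3A, circles for replicate 1 and triangles for replicate 2. Pkm sits farthest right in every library, the KO points of Eno1 and Tpi1 lie left of both WT points, and in 9 of 12 pyruvate entry rows KO replicate 2 is the leftmost point.

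The member carriers Slc2a1 and Slc16a3 lay lower in KO, though neither passed the test. Slc2a2, read outside the members, had a log2 fold change of -0.05 (SE 1.42) and overlapped. Slc2a1 (ENSMUSG00000028645, chromosome 4, 119108711 to 119137983, GRCm38/mm10), the glucose carrier GLUT1, measured 4.7 and 7.67 FPKM across WT, 3.9 and 2.21 across KO, and 9.08 and 2.57 across KO+DNMT3A, replicate 1 before replicate 2 here and below. Both KO values lay under both WT values, and KO+DNMT3A replicate 1 was the highest library while replicate 2 was among the lowest. In KO against WT its log2 fold change was -0.83 (SE 0.65). Slc16a3 (ENSMUSG00000025161, chromosome 11, 120948480 to 120960868), the lactate exporter MCT4, measured 1.4 and 2.7 FPKM (WT), 0.801 and 0.879 (KO) and 1.25 and 0.409 (KO+DNMT3A). The 4 libraries of βRapKO origin all lay below both WT libraries, with log2 fold changes against WT of -0.70 (SE 0.55) for KO and -0.74 for KO+DNMT3A. These Slc16a3 values stand for 1.49 to 11.4 fragments a library if the longest transcript is assumed, so counting error alone is wide.

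Upper glycolysis spans phosphorylation of glucose to the cleavage of fructose bisphosphate into triose phosphates. Hk2, a high-affinity hexokinase, measured 2.38 and 1.2 FPKM across WT, 0.716 and 1.49 across KO, and 2.58 and 0.783 across KO+DNMT3A. Its replicates differed by more than its group means did. Gpi1, which converts glucose 6-phosphate to fructose 6-phosphate, measured 10.3 and 18.1 FPKM (WT), 10.3 and 15.1 (KO) and 14.3 and 14.9 (KO+DNMT3A). WT replicate 2 was its highest library, and WT replicate 1 and KO replicate 1 its lowest. The phosphofructokinases commit sugar to glycolysis. Pfkl, the liver form, measured 5.03 and 16 FPKM across WT, 12.8 and 7.09 across KO, and 12.4 and 6.79 across KO+DNMT3A, and WT held both its lowest and its highest library. Pfkm, the muscle form, measured 5.53 and 11.5 FPKM (WT), 10.4 and 6.93 (KO) and 13.7 and 11.8 (KO+DNMT3A), and both KO+DNMT3A libraries lay above the other 4. Pfkp, the platelet form, measured 3.44 and 5.01 FPKM across WT, 4.9 and 1.4 across KO, and 7.67 and 3.39 across KO+DNMT3A, and was lowest in KO replicate 2.

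Aldoa, the main aldolase gene here, measured 53.2 and 122 FPKM (WT), 77.96 and 41.8 (KO) and 74.1 and 55.9 (KO+DNMT3A). WT replicate 2 stood highest and KO replicate 2 lowest, and the groups overlapped. Its relative Aldoc measured 0 and 1.67 FPKM across WT, 0.885 and 0.462 across KO, and 1.31 and 2.42 across KO+DNMT3A, listed at 0 in the shallowest library. Both KO+DNMT3A libraries exceeded both KO libraries. Tpi1 (ENSMUSG00000023456, chromosome 6, 124810586 to 124814296), which interconverts the triose phosphates, measured 36.2 and 66.9 FPKM (WT), 30.4 and 21.7 (KO) and 34.95 and 17.7 (KO+DNMT3A). Both KO values lay under both WT values, and so did both KO+DNMT3A values. Its log2 fold changes were -0.91 (SE 0.63) for KO against WT and -0.96 for KO+DNMT3A against WT, neither past the test (limma adjusted p = 1 and 0.997).

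Lower glycolysis takes triose phosphate to pyruvate and yields ATP. Eno1 (ENSMUSG00000063524, chromosome 4, 150236721 to 150248879), the ubiquitous enolase, had the smallest p of any member in KO against WT. It measured 14.03 and 22.6 FPKM across WT, 7.67 and 7.33 across KO, and 18.8 and 9.22 across KO+DNMT3A. The KO libraries lay close together under both WT libraries and under both KO+DNMT3A libraries. The log2 fold change was -1.15 (SE 0.59) in KO against WT (limma adjusted p = 1) and 0.74 in KO+DNMT3A against KO. It ranged from -1.47 to -0.82 in KO against WT as each library was left out. Eno2, the neuronal enolase, measured 1.9 and 4.15 FPKM (WT), 1.91 and 4.38 (KO) and 4.57 and 4.31 (KO+DNMT3A), and Eno3, the muscle enolase, measured 20.8 and 22.2 FPKM across WT, 7.81 and 22.01 across KO, and 5.96 and 32.5 across KO+DNMT3A. Eno3 was as high in KO replicate 2 as in WT and low in KO replicate 1, so its KO and its KO+DNMT3A replicates were farther apart than its groups, while its WT replicates lay close together.

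Gapdh (ENSMUSG00000057666, chromosome 6, 125161715 to 125166467), which oxidises glyceraldehyde 3-phosphate, measured 3.79 and 2.26 FPKM (WT), 1.63 and 0.743 (KO) and 1.27 and 2.07 (KO+DNMT3A). Both KO libraries lay below both WT libraries, with a log2 fold change of -0.89 (SE 0.55). This level is low for the step: Pkm was 35.3 to 253 times higher on the FPKM scale, which is per transcript length. The values stand for 1.91 to 8.0 fragments. Of the 50-base words of Gapdh transcripts, 24.7% also occur in transcripts of 222 genes elsewhere, 213 of them pseudogenes, and how the authors placed reads shared between copies is not given in the sources used here, so Gapdh is uncertain. The same holds for Pgk1 (53.9% of words shared with 5 pseudogenes), Pgam1 (36.2%, 4 pseudogenes), Eno1 (25.99%), Ldhb (20.99%), Pkm (14.2%), Pdhb (11.4%) and Mpc1 (11.0%). The pseudogene Pgam1-ps2 was listed at 5.02 to 32.2 FPKM. The Eno1 copy Eno1b was listed at 0 to 13.9 FPKM, highest in WT replicate 1. Tpi1 shared 4.18% of its words with 2 pseudogenes, of which 1 has values here. That one measured 13.2 and 33.1 FPKM (WT), 6.79 and 4.13 (KO) and 20.2 and 2.89 (KO+DNMT3A), so Tpi1 is uncertain too.

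Pgk1, the first ATP-yielding kinase of the pathway, measured 9.37 and 48.8 FPKM across WT, 25.5 and 8.4 across KO, and 29.01 and 13.2 across KO+DNMT3A. Each group held a high and a low library. Pgam1, phosphoglycerate mutase, measured 51.3 and 142 FPKM (WT), 82.3 and 47.6 (KO) and 94.7 and 53.3 (KO+DNMT3A), with the same order of libraries as Pgk1. Pkm, pyruvate kinase of most tissues, was the highest member in every library. It measured 134 and 277 FPKM across WT, 203 and 121 across KO, and 321 and 153 across KO+DNMT3A. Neither KO against WT nor KO+DNMT3A against KO stood clear of the distance between Pkm replicates, with log2 fold changes of -0.29 (SE 0.70) and 0.50. Ldhb, which favours turning lactate into pyruvate, measured 10.4 and 14.1 FPKM (WT), 6.41 and 11.1 (KO) and 6.61 and 8.64 (KO+DNMT3A), and both KO+DNMT3A values lay under both WT values.

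Beside the main line of glycolysis, the PFKFB genes measured at most 2.51 FPKM and the phosphoglucomutases 2.51 to 20.4 FPKM. The PFKFB enzymes set fructose 2,6-bisphosphate, the activator of phosphofructokinase. Pfkfb2 measured 0.266 and 2.41 FPKM across WT, 1.92 and 0.668 across KO, and 1.9 and 2.51 across KO+DNMT3A. Pfkfb3 (ENSMUSG00000026773), a known hypoxia-inducible form, measured 1.3 and 1.25 FPKM (WT), 0.668 and 0.339 (KO) and 1.43 and 0.379 (KO+DNMT3A), so both KO libraries lay below the nearly equal WT libraries. Its log2 fold change was -0.61 (SE 0.56). If the longest transcript is assumed, these Pfkfb3 values stand for 1.53 and 5.85 fragments (WT) and 4.57 and 1.27 (KO). Counting error alone is therefore wide for both the gap and the closeness of the WT values. Pfkfb4 measured 0 and 0.476 FPKM across WT, 0.732 and 0.743 across KO, and 1.03 and 0.726 across KO+DNMT3A and was not tested. The phosphoglucomutases link glycolysis with glycogen: Pgm1 measured 8.39 and 20.4 FPKM (WT), 10.1 and 5.26 (KO) and 15.2 and 4.29 (KO+DNMT3A), and Pgm2 measured 3.43 and 5.75 FPKM across WT, 8.24 and 2.51 across KO, and 6.26 and 4.0 across KO+DNMT3A. Pgm1 was highest in WT replicate 2, and Pgm2 in KO replicate 1.

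Pyruvate enters mitochondria through a carrier of 2 subunits, and both must be present. Mpc2 (ENSMUSG00000026568, chromosome 1, 165460637 to 165481214) measured 5.5 and 6.68 FPKM (WT), 5.11 and 4.17 (KO) and 5.96 and 6.12 (KO+DNMT3A). Its KO values lay just under its WT values, and both KO+DNMT3A values lay within the WT range. The log2 fold change was -0.33 (SE 0.49) in KO against WT and 0.32 (SE 0.49) in KO+DNMT3A against KO. Mpc1 measured 6.98 and 3.01 FPKM across WT, 7.36 and 1.25 across KO, and 4.83 and 1.31 across KO+DNMT3A. Replicate 1 exceeded replicate 2 in each group, and the ratio of Mpc2 to Mpc1 was 0.695 to 4.67 on the FPKM scale.

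The pyruvate dehydrogenase complex turns pyruvate into acetyl-CoA. Its E1 subunit gene Pdha1 measured 16.05 and 15.6 FPKM (WT), 24.1 and 11.6 (KO) and 30.4 and 16.7 (KO+DNMT3A), and Pdhb, the other E1 subunit, measured 22.01 and 35.96 FPKM across WT, 66.1 and 5.18 across KO, and 66.3 and 34.3 across KO+DNMT3A. Pdhb in KO replicate 2 was the lowest library and in KO replicate 1 nearly the highest, so the KO group spanned almost the whole range. Pdhb also had the largest standard error of any member, with a log2 fold change of -0.52 (SE 1.06) in KO against WT and 1.26 in KO+DNMT3A against KO. The ratio of Pdha1 to Pdhb was 2.25 in KO replicate 2 and 0.365 to 0.729 in the other 5 libraries. Dlat, the E2 core, measured 5.18 and 7.81 FPKM (WT), 10.2 and 4.41 (KO) and 9.52 and 6.48 (KO+DNMT3A). Dld, the E3 subunit that other mitochondrial dehydrogenases share, measured 47.4 and 33.5 FPKM across WT, 48.5 and 10.9 across KO, and 36.7 and 18.4 across KO+DNMT3A. In all of these KO replicate 2 was the lowest library. Pdhx, the protein that binds E3 to the core, measured 0 and 2.4 FPKM (WT), 4.42 and 1.5 (KO) and 3.53 and 3.34 (KO+DNMT3A). It was listed at 0 in WT replicate 1, and both KO+DNMT3A libraries exceeded both WT libraries. Its log2 fold change was 0.997 (SE 0.73) in KO against WT and 1.27 in KO+DNMT3A against WT (limma adjusted p = 0.997), and without WT replicate 1 these were 0.11 and 0.38.

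Pyruvate dehydrogenase kinases switch the complex off, and phosphatases switch it on. Pdk4 (ENSMUSG00000019577, chromosome 6, 5483351 to 5496309), a kinase known to be induced in fasting, measured 4.1 and 2.84 FPKM across WT, 2.46 and 1.29 across KO, and 3.66 and 2.7 across KO+DNMT3A. Both KO libraries lay below both WT libraries and both KO+DNMT3A libraries. The log2 fold change was -0.65 (SE 0.53) in KO against WT and 0.56 in KO+DNMT3A against KO. These Pdk4 values stand for 3.50 to 24.5 fragments a library if the longest transcript is assumed. Pdk1, a hypoxia-inducible kinase, measured 1.09 and 2.64 FPKM (WT), 2.11 and 0.113 (KO) and 1.89 and 1.03 (KO+DNMT3A). By the same conversion this stands for 0.459 to 18.8 fragments, and a number below 1 shows how rough that conversion is. Pdk2, a broadly expressed kinase, measured 3.14 and 2.37 FPKM across WT, 5.39 and 1.31 across KO, and 5.6 and 2.29 across KO+DNMT3A. Replicate 1 of KO and of KO+DNMT3A held the highest Pdk2. Pdp1, the phosphatase, measured 2.72 and 0.228 FPKM (WT), 1.4 and 0.710 (KO) and 1.04 and 0.198 (KO+DNMT3A), and its groups overlapped. Pcx (ENSMUSG00000024892, chromosome 19, 4510472 to 4621752), pyruvate carboxylase, which makes oxaloacetate and is abundant in beta cells, measured 2.87 and 27.6 FPKM across WT, 13.5 and 7.5 across KO, and 22.4 and 13.8 across KO+DNMT3A. WT alone spanned a wider range than the other 2 groups together, and both KO+DNMT3A libraries exceeded both KO libraries. The log2 fold change was 0.07 (SE 0.93) in KO against WT, 1.52 without WT replicate 2 and -1.37 without WT replicate 1.

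**Figure D2:**
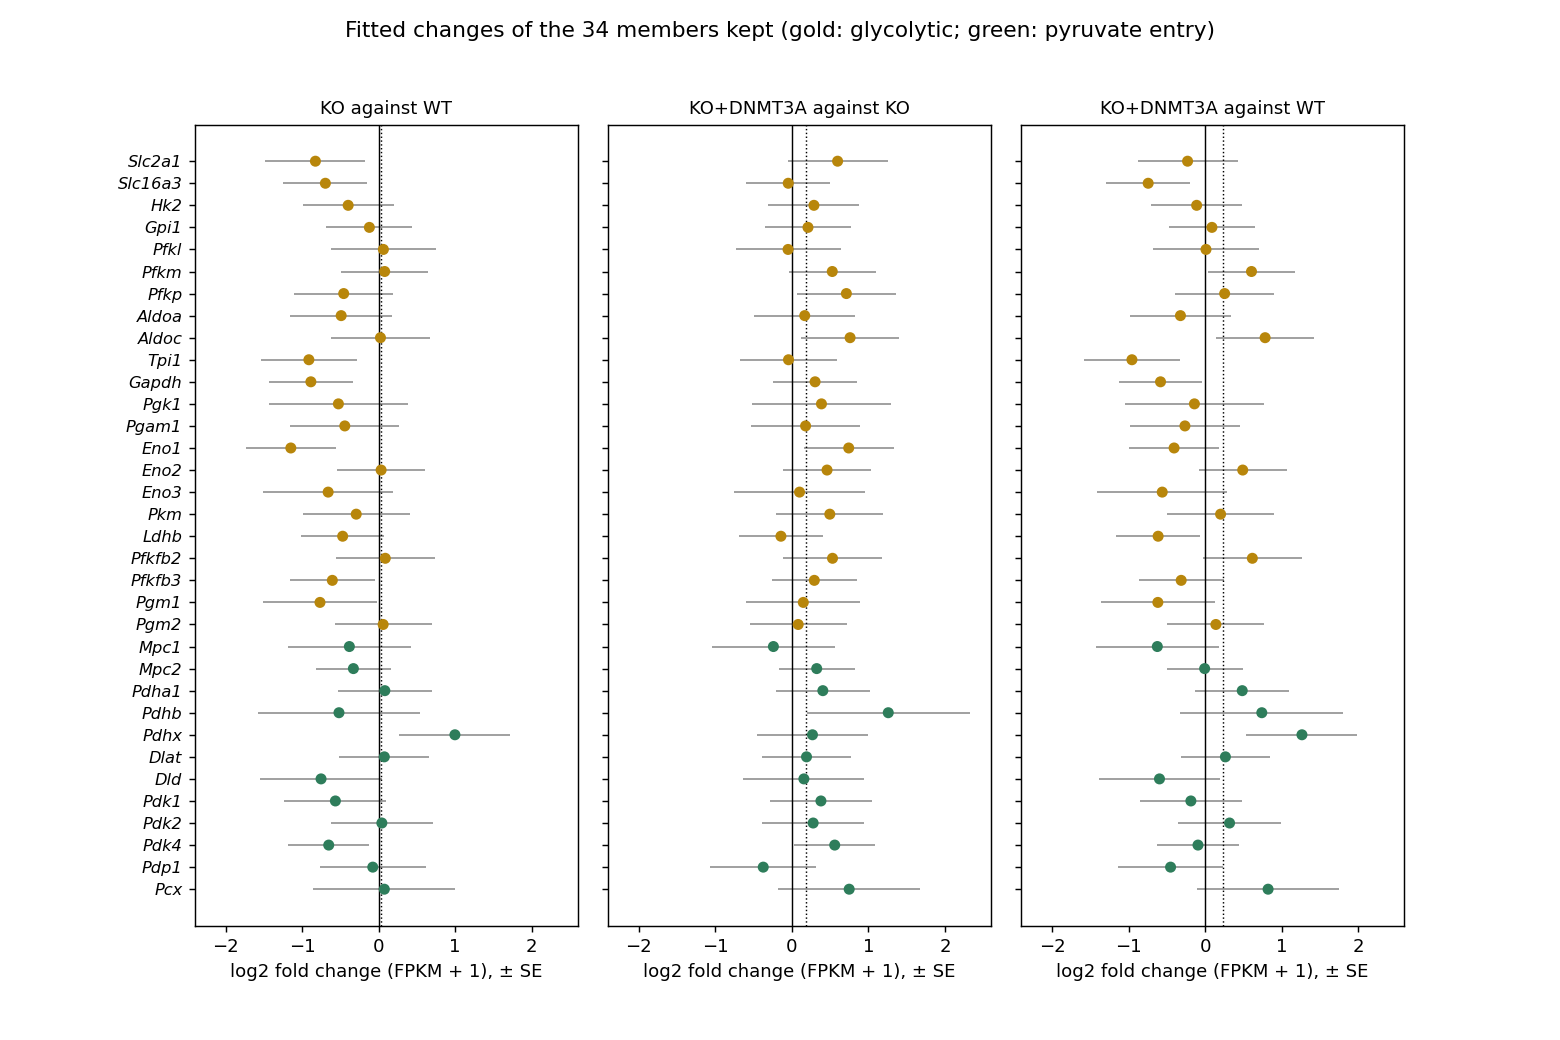
Fitted log2 fold change of the 34 members tested, on log2(FPKM + 1), with bars of 1 standard error, for the 3 comparisons from left to right, with glycolytic members in gold and pyruvate entry members in green; the solid line marks 0 and the dotted line the median of all genes. In KO against WT 16 of 22 gold points lie left of 0, and in KO+DNMT3A against KO 18 of 22 gold and 10 of 12 green points lie right of 0, as does the dotted line at 0.19.

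When single libraries were compared, the glycolytic and pyruvate entry medians had opposite signs in 1 of the 4 pairs of a KO with a WT library and the same sign in the other 3. Between KO replicate 1 and WT replicate 2, both rich in insulin transcripts, 21 of 22 glycolytic members were lower in KO and 1, Pgm2, was higher, against 51.3% of all genes lower. In the same pair only Pdk4, Pdk1, Mpc2 and Pcx of the 12 pyruvate entry members were lower. Medians in this pair were -0.70 for glycolytic members, 0.56 for pyruvate entry members and -0.02 for all genes. Between KO replicate 1 and WT replicate 1 the medians were 0.12 and 0.57, with 10 of 22 and 3 of 12 lower against 36.4% of all genes. Between KO replicate 2 and WT replicate 1, both insulin-poor, they were -0.24 and -0.87, with 14 of 22 and 10 of 12 lower against 42.1%. Between KO replicate 2 and WT replicate 2 they were -1.004 and -0.73, with 20 of 22 and 11 of 12 lower against 62.1%. Eno1, Slc2a1, Slc16a3, Tpi1, Gapdh, Pfkfb3, Mpc2 and Pdk4 were lower in all 4 pairs, which is the same fact as their not overlapping. These are differences between single libraries and carry no test.

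Distances between replicates of 1 group were as large. WT replicate 2 was below WT replicate 1 in 3 of 22 glycolytic members (median 0.79) and in 6 of 12 pyruvate entry members (median 0.10), against 33.3% of all genes. KO replicate 2 was below KO replicate 1 in 16 of 22 glycolytic members (median -0.56) and in all 12 pyruvate entry members (median -1.08), against 58.7% of all genes. KO+DNMT3A replicate 2 was below replicate 1 in 16 of 22 and 11 of 12 (medians -0.73 and -0.71), against 54.1% of all genes. Depth differed in each of these pairs, and its part was not tested.

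**Figure D3:**
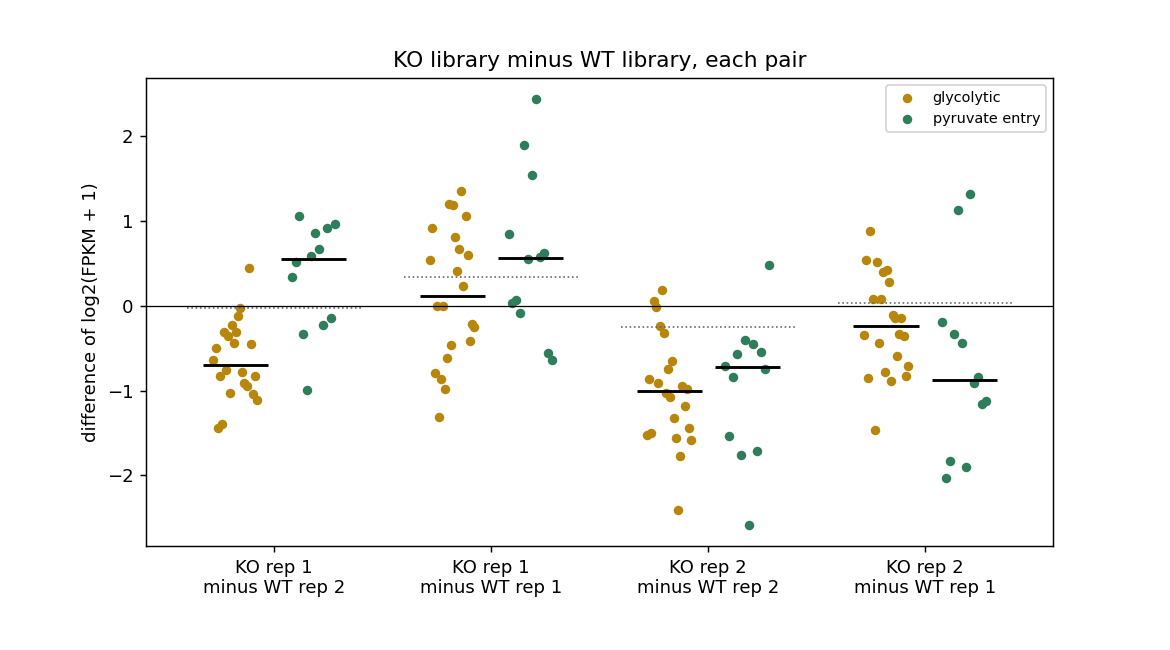
Difference of log2(FPKM + 1) between each KO and each WT library on the vertical axis, 1 point per member, gold for glycolytic and green for pyruvate entry, with thick bars at the medians and dotted lines at the median of all genes. In the first pair the gold median is -0.70 and the green median 0.56, and in the pairs with KO replicate 2 both lie below 0.

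Summed over members, the glycolytic level was 381 and 816 FPKM across WT, 511 and 331 across KO, and 679 and 405 across KO+DNMT3A. The pyruvate entry level was 117 and 141 FPKM across WT, 191 and 49.9 across KO, and 192 and 107 across KO+DNMT3A. Their ratio was 3.25 and 5.80 in WT, 2.68 and 6.64 in KO, and 3.54 and 3.79 in KO+DNMT3A, so KO held both the lowest and the highest ratio. WT replicate 2 was the highest library for 10 of 22 glycolytic members, though for 13.6% of all genes. KO replicate 2 was the lowest library for 10 of 22 glycolytic and 9 of 12 pyruvate entry members, against 20.3% of all genes. The median glycolytic member stood at the 62.3rd to 82.4th percentile of its library's genes and the median pyruvate entry member at the 45.8th to 67.4th, lowest in KO replicate 2.

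**Figure D4:**
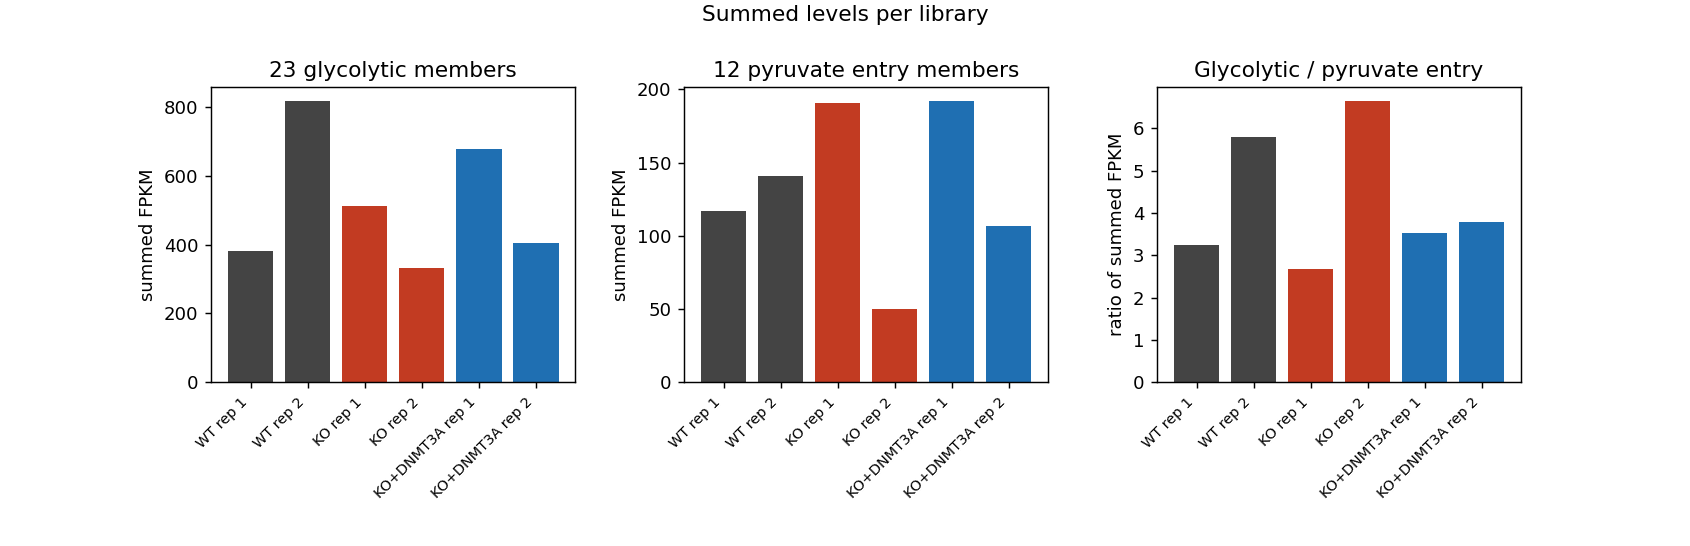
Summed FPKM of the 23 glycolytic members (left), of the 12 pyruvate entry members (middle) and their ratio (right) in each library, 1 bar per library coloured by group. Pkm is the largest contributor to the left panel, and KO replicate 2 has the lowest bar in the left and middle panels and the highest, 6.64, in the right one.

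The second comparison, KO+DNMT3A with KO, asks how Dnmt3a given by lentivirus relates to the same genes. Members lay higher in KO+DNMT3A for 18 of 22 glycolytic and 10 of 12 pyruvate entry genes, but so did 68.2% of all genes. Medians were 0.29 and 0.30, against 0.19 over all genes. Both KO+DNMT3A libraries lay above both KO libraries for Pfkm, Aldoc, Eno1, Mpc2, Pdk4 and Pcx, 6 of 34 members, against 17.2% of all genes, and no member lay entirely below, against 5.43%. This share of members was near the background. The largest member change was 1.26 (SE 1.06) for Pdhb, which overlapped between groups. No member passed (0 of 34 and 0% of all genes, limma adjusted p = 1), and none had an unadjusted p under 0.05, against 147 of 13233 genes (1.11%). After scaling each library to its median the all-gene median was -0.0023, the glycolytic median 0.13 and the pyruvate entry median 0.10, and 8 members changed sign. Without KO replicate 2 the medians were 0.13 and -0.35, without KO replicate 1 0.58 and 0.88, without KO+DNMT3A replicate 1 -0.03 and 0.06, and without KO+DNMT3A replicate 2 0.49 and 0.64. The KO libraries enter both this comparison and that of KO with WT, so opposite signs in the 2 are not separate observations.

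The last comparison set KO+DNMT3A beside WT. Glycolytic members were lower in 13 of 22 cases and pyruvate entry members in 6 of 12, against 35.2% of all genes, with medians of -0.18 and 0.13 against 0.23 over all genes. Slc16a3, Tpi1, Gapdh and Ldhb lay below both WT libraries in both KO+DNMT3A libraries, 4 of 34 members against 7.87% of all genes. Pfkm, Eno2, Pdha1 and Pdhx lay above, 4 of 34 against 19.2%. No member passed (0 of 34 and 0% of all genes, limma adjusted p at least 0.997), and none had an unadjusted p under 0.05, against 379 of 13233 genes (2.86%). The glycolytic median was 0.36 without WT replicate 2, 0.29 without KO+DNMT3A replicate 2, -0.43 without WT replicate 1 and -0.41 without KO+DNMT3A replicate 1. The pyruvate entry median was -0.08 without KO+DNMT3A replicate 1, 0.29 without replicate 2, and 0.19 and 0.06 without WT replicates 2 and 1. Its sign also depended on scaling, at -0.10 with median scaling and -0.04 with quantile normalization.

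Among the 3 comparisons, the members that lay apart in both comparisons with WT were Slc16a3, Tpi1 and Gapdh, all lower. For Slc16a3 the log2 fold changes were -0.70 in KO and -0.74 in KO+DNMT3A, for Tpi1 -0.91 and -0.96, and for Gapdh -0.89 and -0.58. Eno1 and Pdk4 instead lay lower in KO than in both other groups. Mpc2 did too, by a smaller amount. Both comparisons with WT share the WT libraries, and none of these differences passed the test. The share of all genes with either joint pattern was not computed, so these members have no background here. Slc16a3 stands for as few as 1.49 fragments in a library and Gapdh for 1.91, and Gapdh shares words with many pseudogenes. Pdk4 stands for as few as 3.50 fragments, Mpc2 for 5.40 and Eno1 for 6.96, and Eno1 shares 25.99% of its words with genes elsewhere.

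Isoforms within a family had different shares across libraries. GLUT1 (Slc2a1) made up 86.3% of the FPKM of the glucose carriers Slc2a1, Slc2a2 and Slc2a3 in WT replicate 1 and 69.8% in KO replicate 2, but 22.8% to 54.7% in the other 4. Slc2a2, the beta cell carrier GLUT2, measured 0 and 20.7 FPKM (WT), 10.8 and 0.719 (KO) and 6.72 and 8.03 (KO+DNMT3A). It was listed at 0 or low in exactly the insulin-poor libraries, and its log2 fold change in KO against WT was -0.05 (SE 1.42). Enolase shares moved by library, not by group: Eno3 held 20.3% in KO+DNMT3A replicate 1 and 70.6% in replicate 2, and Eno1 held 64.1% and 20.05%. Phosphofructokinase shares were steadier, at 30.9% to 49.3% for Pfkl, 35.3% to 53.7% for Pfkm and 9.08% to 24.6% for Pfkp. Aldoa held at least 95.3% of the aldolase FPKM in every library.

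**Figure D5:**
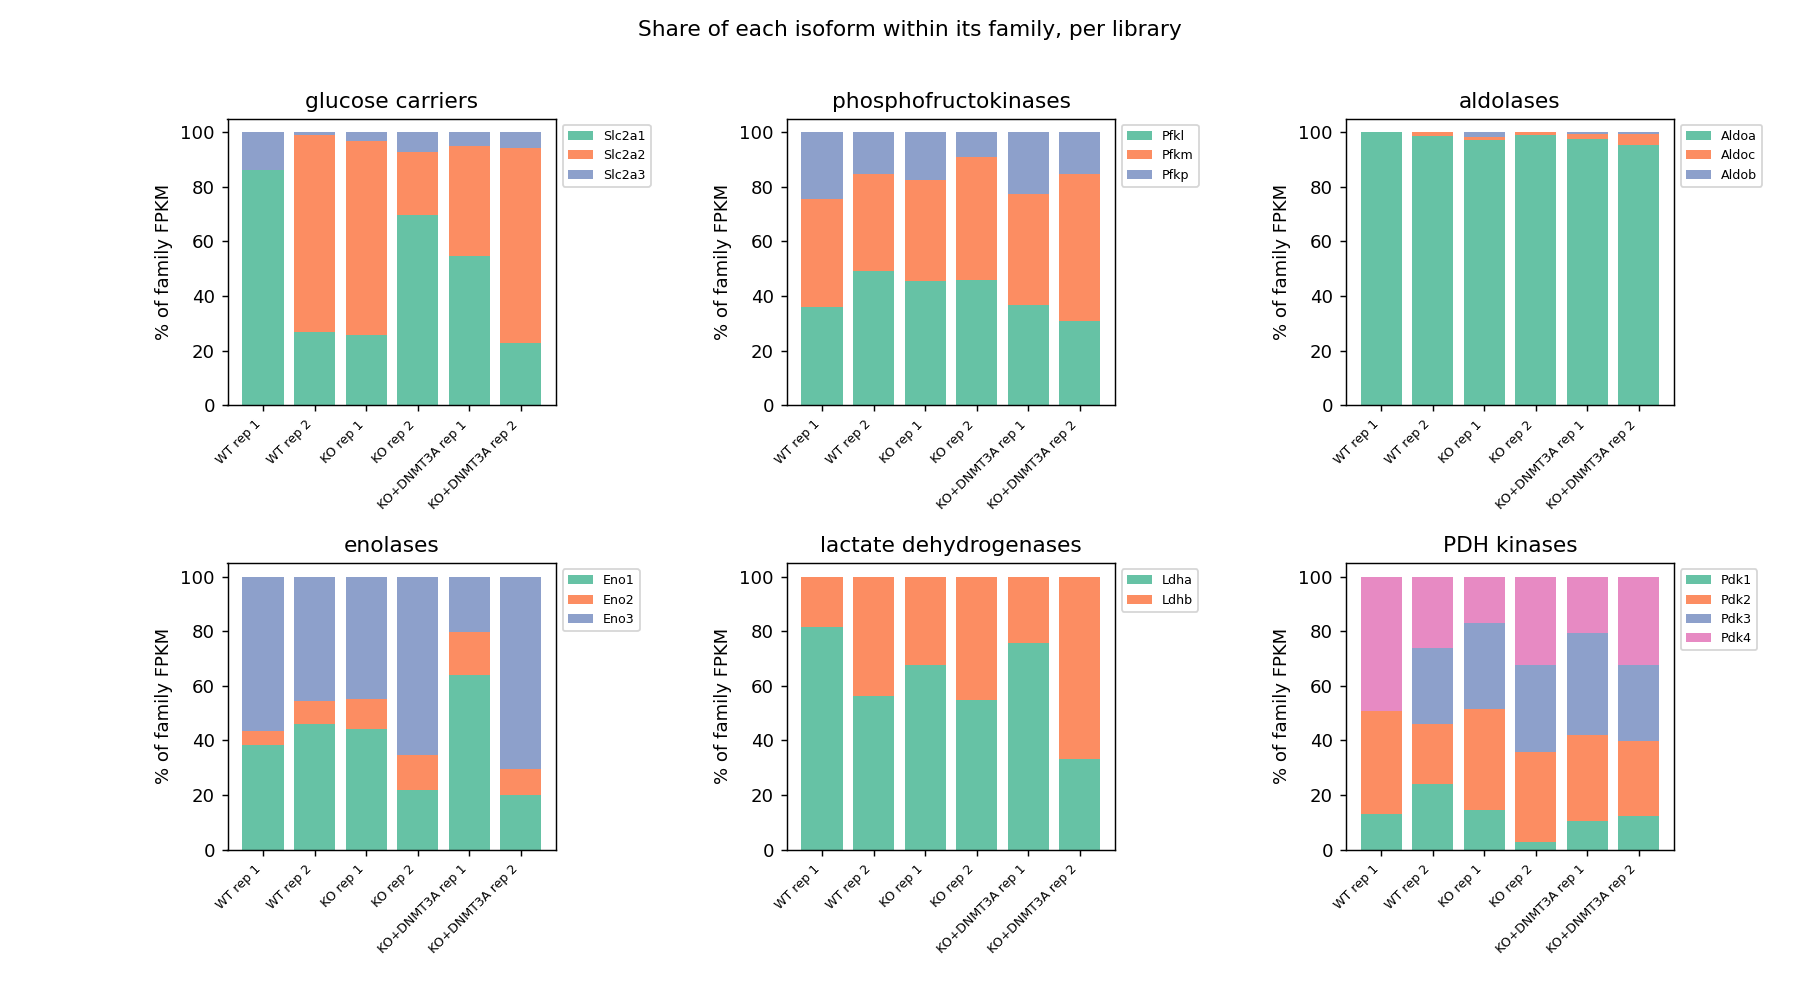
Share of each isoform in its family's summed FPKM, in percent on the vertical axis, 1 stacked bar per library, for glucose carriers, phosphofructokinases, aldolases, enolases, lactate dehydrogenases and pyruvate dehydrogenase (PDH) kinases. Slc2a1 takes 86.3% in WT replicate 1 and 69.8% in KO replicate 2, the 2 insulin-poor libraries, and the aldolase bars differ least.

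Genes of the same pathway outside the 35 were read from a list of 29, of which 17 were kept. In KO against WT 9 were higher and 8 lower (median 0.03, against 0.03 over all genes), in KO+DNMT3A against KO 13 and 4 (median 0.51, against 0.19), and in KO+DNMT3A against WT 13 and 4 (median 0.41, against 0.23). None passed the limma test. Hk1, a broadly expressed hexokinase, measured 2.31 and 0.664 FPKM across WT, 0.793 and 2.07 across KO, and 1.85 and 0.361 across KO+DNMT3A. Ldha, lactate dehydrogenase A, measured 45.4 and 18.1 FPKM (WT), 13.3 and 13.4 (KO) and 20.8 and 4.29 (KO+DNMT3A), with both KO libraries below both WT libraries and a log2 fold change of -1.05 (SE 0.80). WT replicate 1 stood far above the rest, and Ldha was 33.2% to 81.4% of lactate dehydrogenase FPKM. Both KO libraries lay below both WT libraries for 2 of the 17 kept genes, against 10.5% of all genes. Slc16a1, the monocarboxylate carrier MCT1, measured 0.924 and 0.232 FPKM across WT, 0.475 and 0.289 across KO, and 3.06 and 0.607 across KO+DNMT3A and was too low to test. The kept genes with the smallest p in KO against WT were Ldha, Pdp2 and Fbp1. Pdp2, a second phosphatase of pyruvate dehydrogenase, measured 0 and 3.83 FPKM (WT), 6.04 and 1.84 (KO) and 5.98 and 3.08 (KO+DNMT3A), with a log2 fold change of 1.02 (SE 0.85). Fbp1, a gluconeogenic phosphatase, measured 0 and 0 FPKM across WT, 1.97 and 0 across KO, and 3.76 and 2.16 across KO+DNMT3A, listed at 0 in 3 libraries, and had an unadjusted limma p of 0.0192 in KO+DNMT3A against WT (adjusted p = 0.997).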

How the data were processed

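Poly-A RNA of isolated islets was sequenced after TruSeq library preparation, per the labels' protocols. The authors deposited FPKM values, per the file headers. The submitters' processing notes name the mm10 build with HISAT2 2.0.4, StringTie 1.3.0 and edgeR, but not their roles. Counts were not used here, and depth was inferred from the FPKM steps of genes with 1 transcript, whose values up to 20 fragments were whole within 0.01 in 84.5% to 91.8% of cases. Fragment numbers of members assume the longest transcript and are approximate. Under that assumption, genes with more than 1 transcript, as all members are, gave whole numbers in only 4.64% to 5.03% of cases. Symbols and positions come from GENCODE M21 (GRCm38/mm10).

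A gene reaching 1 FPKM in 2 or more libraries was kept (13233 of 34745), and these entered 1 limma 3.58.1 fit (R 4.3.3) of log2(FPKM + 1) over all 6 libraries with a trended, robust empirical Bayes step, two-sided, with Benjamini-Hochberg adjustment over all genes per comparison at 0.05. The pseudocount understates folds of low genes. The fit was tested on simulated data for KO against WT, where it recovered changed genes at a reduced spread and none at the spread of these libraries, so a count of 0 calls here does not show that genes were alike. Not overlapping means that both libraries of a group lie on 1 side of both of the other. The labels do not say that libraries came from separate mice, so p-values reflect only how these libraries vary, possibly for technical reasons. All 35 members are named; of other lists, Hk1, Ldha, Slc2a2 and Slc16a1, and up to 3 genes with the smallest p in KO against WT. Ogdh, Txnip, Eno1b and Pgam1-ps2 were named after their values were seen. A further gene is not reported here. Members and lists were chosen with earlier results of these data known. Alternatives changed the scaling (by quantiles, by the median, or without the dominant mitochondrial and insulin transcripts), the pseudocount (0.1), the filter (none, or 5 FPKM), the fit (no trend, 2 groups only, a replicate block) or the libraries (each left out, or both insulin-poor ones). Copies were searched as shared 50-base words. Python 3.11.15, numpy 2.4.6, pandas 2.3.3 and matplotlib 3.10.9 were used.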

Additional observations from a re-analysis of the deposited data

How the results depend on the processing

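Counts of calls were 0 throughout and say nothing of stability. The glycolytic median of KO against WT ranged from -0.70 to -0.04 over the alternatives that change its values, genes or libraries; blocks, the trend and leaving out KO+DNMT3A libraries cannot move its folds. Without both insulin-poor libraries the pyruvate entry median was 0.56 in KO against WT and -0.35 in KO+DNMT3A against KO. As each library was left out in turn, the pyruvate entry median ranged from -0.57 to 0.51 in KO against WT and from -0.35 to 0.88 in KO+DNMT3A against KO, and the glycolytic median of KO+DNMT3A against WT from -0.43 to 0.36; the cause was not tested. In KO against WT 9 of 22 glycolytic members kept their sign whichever library was left out. These were Eno1, Gapdh, Hk2, Ldhb, Pfkfb3, Pgm1, Slc16a3, Slc2a1 and Tpi1. So did 3 of 12 pyruvate entry members, Mpc2, Pdhx and Pdk4. In KO+DNMT3A against KO 7 and 3 kept theirs, and in KO+DNMT3A against WT 7 and 5. The share of all genes that did so was not computed, so these counts have no background. Members that do not overlap keep their sign by definition, and leaving out the group not compared cannot change a sign. Rescaling without dominant transcripts changed the sign of 7 members in KO against WT, and quantile normalization that of 5. Whether equal replicate numbers mark pairs could not be decided. Differences between replicates correlated across 13233 genes at -0.27 for WT with KO, 0.10 for WT with KO+DNMT3A and 0.32 for KO with KO+DNMT3A. With 1 difference per group, and insulin-poor libraries among them, these correlations cannot show whether libraries were paired. The deposited column names carry other numbers, which the labels leave unexplained: 3 and 6 (WT replicates 1 and 2), 1 and 3 (KO) and 2 and 3 (KO+DNMT3A). The shared 3 marks WT replicate 1 and KO replicate 2, both insulin-poor, and KO+DNMT3A replicate 2. A block on this number over all libraries was not fitted. With a replicate block 0 members were called in each comparison, and its medians equal those without it. A crossed block for KO and WT set WT replicate 1 with KO replicate 2, the libraries of these groups numbered 3. It was added after the data were seen because the correlation of WT with KO was negative, and it called 0 genes. Depth limits most low members, some of which rest on fewer than 3 fragments in a library.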

Other observations

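Pathways next to these genes gave the following values, with no gene past the limma test. Over all genes 47.3% were lower in KO than in WT (median 0.03) and 68.2% were higher in KO+DNMT3A than in KO (median 0.19). Of 16 citric acid cycle genes, all kept, 10 were lower in KO than in WT (median -0.09), and 14 were higher in KO+DNMT3A than in KO (median 0.28). Ogdh, a subunit of the oxoglutarate dehydrogenase complex named after its values were seen, measured 11 and 19.4 FPKM (WT), 15.7 and 10.03 (KO) and 23.1 and 17.8 (KO+DNMT3A), so both KO+DNMT3A libraries lay above both KO libraries. This held for 1 of the 16 genes, against 17.2% of all genes. The citric acid cycle genes with the smallest p in KO against WT were Suclg2 at 0.73 (SE 0.74) on the log2 scale, Dlst at 0.60 (SE 0.66) and Sdhc at -0.52 (SE 0.63). Of 15 kept genes of the NADH shuttles and pyruvate cycling, 10 were higher in KO (median 0.06), with Idh1 at -1.15 (SE 0.93), Me2 at 0.96 (SE 0.79) and Slc25a12 at 0.57 (SE 0.66). Me2, a mitochondrial malic enzyme, measured 1.67 and 5.02 FPKM across WT, 6.28 and 7.31 across KO, and 6.58 and 0.729 across KO+DNMT3A. Both KO libraries lay above both WT libraries. This held for 1 of the 15 kept genes, against 9.36% of all genes.

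Of 8 pentose phosphate genes 6 were lower in KO (median -0.31). G6pdx, the entry enzyme of that pathway, measured 0 and 5.06 FPKM (WT), 10.5 and 2.32 (KO) and 12.8 and 6.03 (KO+DNMT3A), listed at 0 in the shallowest library. Its log2 fold change was 1.33 (SE 0.97), while Shpk was at -0.62 (SE 0.51) and Pgls at -0.45 (SE 0.56). Of 14 kept hypoxia and glucose responsive genes 11 were lower in KO (median -0.44), and 12 were higher in KO+DNMT3A than in KO (median 0.54). Ddit4, a known stress-induced inhibitor of mTORC1, measured 33.9 and 26.8 FPKM across WT, 18.7 and 8.36 across KO, and 25.7 and 24.4 across KO+DNMT3A, with both KO libraries below the other 4. Its log2 fold change in KO against WT was -1.20 (SE 0.60), that of Ankrd37 -1.75 (SE 0.86), and that of Car9, listed at 0 in 4 libraries, -1.46 (SE 0.98). Both KO libraries lay below both WT libraries for 3 of these 14 genes, against 10.5% of all genes. Both KO+DNMT3A libraries lay above both KO libraries for 2 of the 14, against 17.2%. Txnip, a glucose-induced gene named after its values were seen, measured 1.77 and 1.04 FPKM (WT), 10.6 and 2.04 (KO) and 21.8 and 3.88 (KO+DNMT3A). Both KO libraries lay above both WT libraries, and replicate 1 carried most of it. That order of KO and WT libraries held for 1 of the 14 genes, against 9.36% of all genes.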
